A study of Mus musculus with 19 samples.

Results

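The T-box factors followed here are 8 transcription factors, Tbx1, Tbx2, Tbx3, Tbx4, Tbx5, Tbx15, Tbx18 and Tbx20, measured in fibroblasts cultured from 7 organs of adult mice. The genes were chosen by name: every array probe whose transcript accession belongs to 1 of the 8 genes was taken, which gave 10 probes, 3 of them for Tbx20 and 1 for each of the others. All 8 were among the 19717 genes tested, of 20660 genes with a named probe. The series holds 19 samples: 3 per organ for tail, lung, liver, heart and gonad fibroblasts, and 2 per organ for skin and kidney. In every group the tissue of mice 8 to 10 weeks old was chopped, digested with trypsin or collagenase, and the outgrowing cells were kept for 5 days in medium with 10% serum. By their labels the groups differ by organ, and the enzyme used on each organ is not given here. The labels name no strain, sex or genotype. Nor is it stated that replicates are different mice, so p-values measure the spread between these samples, which may be technical.

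T-box factors share a DNA-binding domain, the T-box, and act in the embryo as switches of regional identity, some as activators and some as repressors of transcription. Several are best known for the place where their loss is felt: Tbx5 in the forelimb and heart, Tbx4 in the hindlimb and lung, Tbx1 in the pharynx and outflow tract, Tbx18 in the epicardium and Tbx20 in the heart. Tbx2 and Tbx3 are repressors that hold back chamber genes in parts of the developing heart, and Tbx15 acts in the skeleton and in the dermis. Fibroblasts of different organs arise from different regions of the embryo.

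RNA from each sample was hybridised to a 1-colour Agilent array, and 18 of the 19 samples, all but lung replicate 2, entered the tests below through their scanner files. A level is the log2 of a probe's processed signal less the log2 of that array's 75th percentile, so 0 is the 75th percentile of the array, and levels of different probes are not compared. On 5 arrays (gonad 3, heart 1, kidney 1, kidney 2 and tail 2) the scanner's own background measure was out of range: their median raw signal was 213 to 1985, against 63 to 130.5 on the 13 others, and 84.9% to 96.6% of probes were well above background, against 51.2% to 77.2%. Results are therefore given for all 18 arrays and for the 13 arrays of accepted background, which hold no kidney array. The 10 fibroblast markers, against which the labels were checked, had a summed signal of 1272 to 2036 times the 75th percentile on all arrays but heart 1 (426.1) and the 2 kidney arrays (139.6 and 267.6). On the kidney arrays the 6 simple epithelial markers summed to 88.7 and 112.7, above every other organ, and the part of these markers and of the high background in the kidney results was not tested.

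All 8 factors differed among the 7 organs by limma's F test (Benjamini-Hochberg adjusted p 3.7e-05 to 0.034), where 35.4% of all genes did. On the 13 arrays and 6 organs all 8 again passed (adjusted p 4.3e-05 to 0.0026), against 53.8% of all genes. The organ means of Tbx5 spanned 7.34 log2 units, wider than 99.5% of the genes tested, and those of Tbx1 6.93 units, wider than 99.2%. The low end of each span (gonad for Tbx5, heart for Tbx1) was not well above background on 2 of 3 arrays, so the spans rest on dim signals. Tbx4 (6.21) and Tbx20 (6.04) followed, and the span of Tbx18 (2.44) was wider than only 39.7% of genes. The F test of Tbx18 was the least steady: its adjusted p stayed under 0.05 only without gonad 3, heart 1 or heart 3, and was 0.054 to 0.18 when any other single array was left out. Those of Tbx5 (0.052 to 0.057 without gonad 2, kidney 1, lung 1 or lung 3) and Tbx4 (0.052 without kidney 1) were also lost, and without kidney 1 only 5 of the 8 factors passed.

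**Figure D1:**
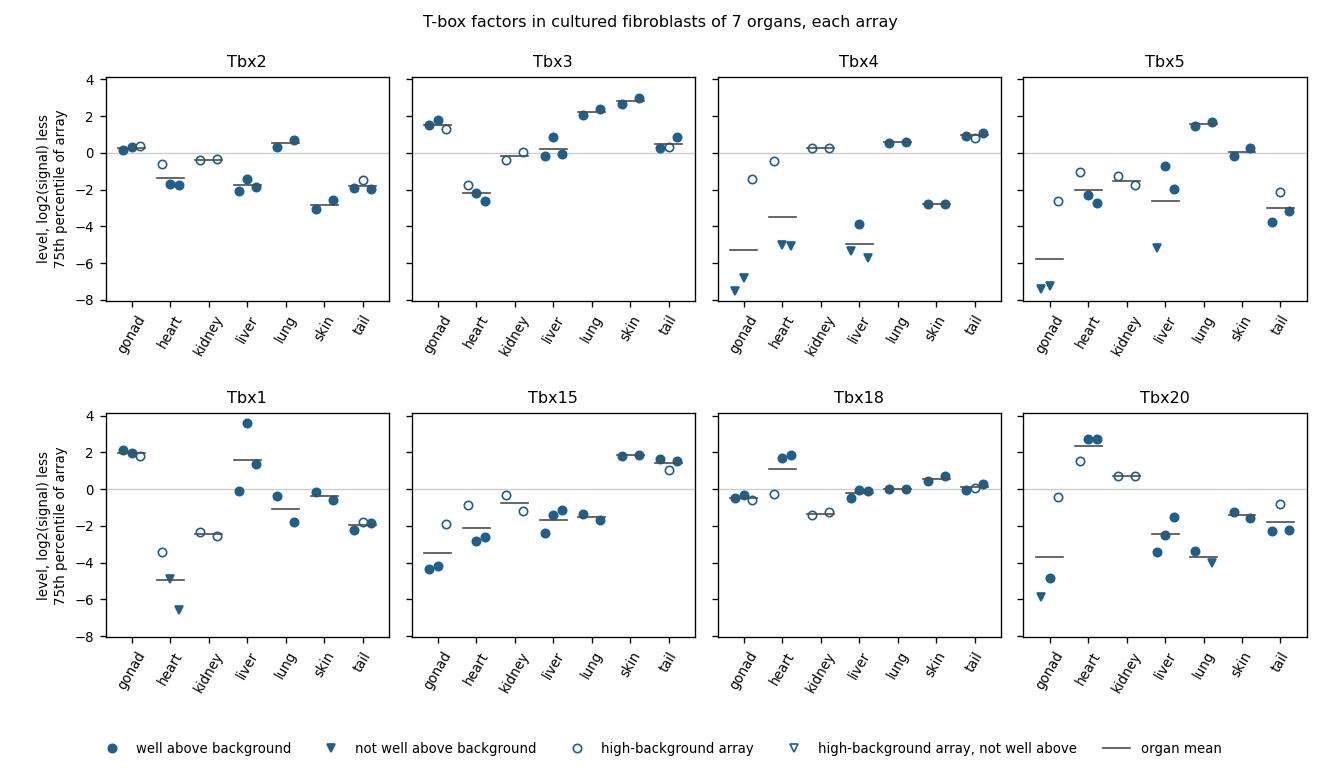
Level of each T-box factor on each of the 18 arrays (vertical axis, log2 of the processed signal less that of the array's 75th percentile) by organ (horizontal axis). Filled symbols are the 13 arrays of accepted background, open symbols the 5 high-background arrays, triangles probes not well above background, and bars organ means. Tbx20 is highest in heart, Tbx15 in skin and tail, and Tbx5 in lung, and the open circles of gonad 3 and heart 1 lie above their partners for Tbx4, Tbx5 and Tbx15.

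Each organ was then set against the mean of the other 6, and a factor was called at an adjusted p under 0.05 and a log2 difference of at least 1. Of 56 such tests 17 were called. In gonad 2 factors were higher (2.31% of all genes) and 2 lower (0.903%), and in heart 1 was higher (1.47%) and 2 were lower (2.57%). Liver had 1 higher factor (1.18%, with 0.593% of genes lower), lung 2 higher (0.472%, with 0.167% lower), and tail 1 higher (4.57%, with 2.54% lower). In skin 2 were higher (0.913%) and 1 was lower (0.801%). In kidney 1 was higher and 2 were lower, but there 37% of all genes were called higher and 40.1% lower, so these counts show nothing particular to the factors. The median difference of the 8 factors was -1.57 in gonad (all genes -0.080), -0.895 in heart (-0.099), 0.309 in kidney (-0.171) and -0.842 in liver (0.039). It was 0.908 in lung (0.040), 0.749 in skin (0.354) and -0.318 in tail (0.314). On the 13 arrays 25 of 48 tests were called, and 14 of these calls were shared with the 18 arrays. The remaining calls of the 18 arrays were in kidney, which the 13 do not hold. Of the 25 calls 14 were higher and 11 lower, against 8.58% and 6.52% of all gene-by-organ tests. These shares were unequal: 19% of all genes were lower in gonad, 21.3% higher in skin and 17.9% higher in tail. With normexp background and quantile scaling of the same 13 arrays, chosen after seeing the data, they were 2.45%, 3.70% and 4.23%, and, of the calls shared with the 18 arrays, the lower ones in gonad (Tbx5 -2.29, Tbx15 -2.28) and the higher ones in skin (Tbx3 2.17, Tbx15 2.86) and tail (Tbx15 2.55) were made again. Scaling each array to the median of its detected probes, in place of the 75th percentile, kept 5 of the 17 calls (Tbx1 and Tbx3 in heart, Tbx18 in kidney, Tbx3 in skin and Tbx15 in tail) and turned none round; Tbx20 in heart was then at 3.8 with an adjusted p of 0.050.

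**Figure D2:**
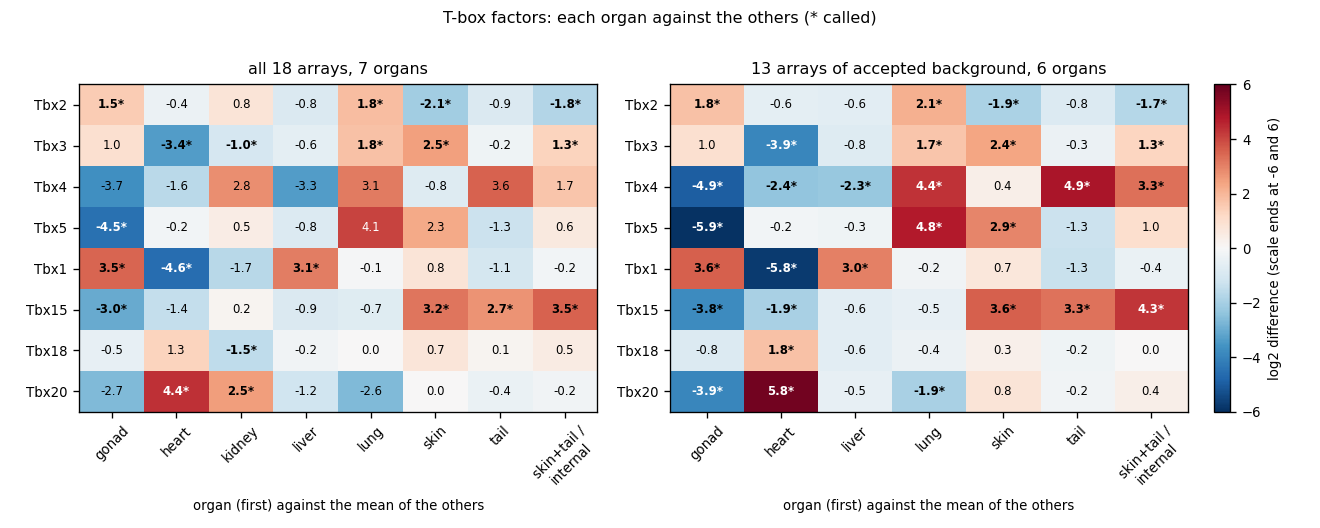
Log2 difference of each organ against the mean of the other organs, and of skin and tail against the internal organs (columns), for each factor (rows), on all 18 arrays at left and on the 13 arrays of accepted background at right. Red is higher and blue lower in the organ named, and bold values with a star passed the call. The heart column is red for Tbx20 and blue for Tbx1 and Tbx3 in both panels, and the Tbx4 row gains its calls only in the right panel.

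Tbx2 and Tbx3 code for closely related repressors of transcription, and both were high in lung. Tbx2 (probe A_55_P2010773) had levels of 0.34 and 0.72 in lung and 0.17, 0.29 and 0.38 in gonad, against -0.37 and -0.36 in kidney, -0.59, -1.71 and -1.77 in heart, -2.07, -1.40 and -1.84 in liver, -1.93, -1.46 and -1.95 in tail and -3.08 and -2.59 in skin. The lung and gonad arrays lay above all others, and the skin arrays lay below all others. Tbx2 was 3.57-fold higher in lung than in the other organs (log2 difference 1.84 ± 0.32 SE, adjusted p = 0.022), 2.91-fold higher in gonad (1.54 ± 0.27, 0.0055), and fell by 2.09 ± 0.32 in skin (0.0053). With the 13 arrays these differences were 2.14, 1.78 and -1.90 (adjusted p 0.0012, 0.00049 and 0.00047). Gonad and lung, the top pair, did not differ beyond their spread (gonad less lung -0.25 ± 0.39, adjusted p = 1.0), and no neighbours in the order of organ means passed the test. With single arrays left out, the lung call was lost without lung 1 (adjusted p = 0.25) or lung 3 (0.61), the gonad call without gonad 2 (0.050) and the skin call without skin 1 (0.21) or skin 2 (0.11).

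Tbx3, whose dosage is critical for limb and mammary gland formation, shared the lung level but not the skin level of Tbx2. Tbx3 (probe A_55_P1969002) had levels of 2.67 and 2.98 in skin, 2.05 and 2.38 in lung, 1.51, 1.76 and 1.27 in gonad, 0.28, 0.33 and 0.84 in tail, -0.19, 0.84 and -0.04 in liver, -0.41 and 0.04 in kidney and -1.77, -2.19 and -2.61 in heart. Every skin array lay above every other array, and the 3 heart arrays lay below all others. Tbx3 fell by 3.37 ± 0.27 in heart, a 10.3-fold lower signal (adjusted p = 1.1e-05, 3.89 log2 units lower on the 13 arrays, adjusted p = 4.6e-05). It was 5.59-fold higher in skin (2.48 ± 0.32, 0.0021) and 3.42-fold higher in lung (1.77 ± 0.32, 0.025), and by 2.38 (0.00072) and 1.65 (0.015) on the 13 arrays. Heart was lower than each of the other 6 organs in the pairwise tests, by 2.01 (kidney, adjusted p = 0.0076) to 5.02 (skin, 1.8e-05), and kidney and heart were the only neighbours in its order that differed. Lung and skin did not differ beyond their spread (lung less skin -0.61 ± 0.43, 0.84). In kidney Tbx3 fell by 1.03 ± 0.32 (0.014), a call that was lost with slide as a block (-0.98) and without heart 1 (-0.99), kidney 1 (-0.80), liver 2 (-0.97) or tail 3 (-0.999), where the difference came under 1. Within the slides that held a kidney array it was -0.65 and -0.50. The lung call was lost with slide as a block (adjusted p = 0.066) and without lung 1 (0.29), lung 3 (0.66), skin 1 (0.057) or skin 2 (0.052), and the skin call without skin 1 (0.062) or skin 2 (0.12).

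Tbx4 and Tbx5 code for paralogous activators that work at the start of limb buds through Fgf10 and together in the lung bud. Tbx4 (probe A_55_P2112445) had levels of 0.94, 0.80 and 1.102 in tail, 0.55 and 0.58 in lung, 0.25 and 0.28 in kidney, -2.78 and -2.76 in skin, -0.42, -5.02 and -5.08 in heart, -5.32, -3.89 and -5.70 in liver and -7.51, -6.84 and -1.45 in gonad. The heart value of -0.42 and the gonad value of -1.45 came from the high-background arrays heart 1 and gonad 3. On the other gonad and heart arrays, and on liver 1 and liver 3, the probe was not well above background. With all 18 arrays no organ contrast of Tbx4 was called (tail 3.56 ± 1.09, adjusted p = 0.065; lung 3.11 ± 1.29, 0.47). Without the 5 high-background arrays Tbx4 was at least 21.3-fold higher in tail than in the other organs (adjusted p = 7.2e-05) and at least 14.6-fold higher in lung (0.0012). There it was also at least 8.26-fold lower in gonad (0.00014), at least 3.58-fold lower in heart (0.0033) and lower in liver (-2.29 ± 0.33, 0.0051), where the probe was well above background on only 1 of 3 arrays, so the size rests on dim signals. A bound applies to organs with no array well above background. It sets each of their arrays at its lowest signal well above background, or at the probe's own signal where that was higher. Dim arrays of an organ with another array well above background kept their own signal. Bounds that include such arrays still rest in part on dim signals. Tail and lung did not differ beyond their spread (lung less tail -0.46 ± 0.50 on the 13 arrays, 0.53), lung was higher than skin by 3.33 (0.0036), and heart and liver did not differ beyond their spread (-0.08 ± 0.45, 0.94).

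Tbx5 (probe A_52_P523712), the Holt-Oram syndrome gene in humans, had levels of 1.48 and 1.67 in lung, -0.19 and 0.28 in skin, -1.29 and -1.75 in kidney, -1.06, -2.32 and -2.75 in heart, -5.20, -0.73 and -1.95 in liver, -3.78, -2.11 and -3.19 in tail and -7.43, -7.25 and -2.60 in gonad. Both lung arrays lay above all others, while liver 1 lay far below the other liver arrays. Gonad 1, gonad 2 and liver 1 were not well above background. Tbx5 fell by 4.49 ± 0.95 in gonad (adjusted p = 0.018), a call lost without gonad 1 (-3.66, 0.20) or gonad 2 (-3.75, 0.18). Within the 3 slides the gonad difference was -5.47, -6.62 and, on the slide of the high-background array gonad 3, -0.61. On the 13 arrays it was at least 14.8-fold lower in gonad (0.0016), at least 20.5-fold higher in lung (0.022) and at least 5.72-fold higher in skin (0.026). With all 18 arrays the lung difference was 4.07 ± 1.12 (0.16) and the skin difference 2.28 ± 1.12 (0.44). Lung and skin did not differ beyond their spread (1.53 ± 1.49, 0.85), and on the 13 arrays tail and gonad were the only neighbours that did (at least 3.50-fold, 0.023). In heart, where Tbx5 is required for septation, the contrast was -0.16 ± 0.95 (1.0). On lung 1 and lung 3, whose levels enter the lung results of Tbx2, Tbx3, Tbx4 and Tbx5, the simple epithelial markers summed to 71.4 and 24.4 times the 75th percentile, against 0.827 to 2.19 in tail and 4.56 to 6.38 in skin. The mesothelial markers summed to 73.6 and 33.4 in lung, against 5.67 to 7.66 in tail and 4.19 to 4.37 in skin, and the part of both lists in the lung results was not tested.

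Tbx1 (probe A_55_P2051716), the gene behind most heart and pharyngeal defects of the 22q11 deletion in humans, was lowest in heart fibroblasts. Its levels were 2.12, 1.99 and 1.82 in gonad, -0.12, 3.58 and 1.37 in liver, -0.13 and -0.56 in skin, -0.39 and -1.77 in lung, -2.20, -1.76 and -1.86 in tail, -2.32 and -2.56 in kidney and -3.43, -4.87 and -6.55 in heart. All 3 heart arrays lay below every other array, and heart 2 and heart 3 were not well above background. The 3 gonad arrays lay close together, and the liver arrays were widely spread. Tbx1 fell by 4.58 ± 0.65 in heart (adjusted p = 0.00083), and on the 13 arrays it was at least 23.4-fold lower there (0.0016). It was 11.3-fold higher in gonad (3.50 ± 0.65, 0.0079), a call lost without gonad 1 (0.069) or gonad 2 (0.061). In liver it was 8.43-fold higher (3.08 ± 0.65, 0.029), the least steady call: with slide as a block its adjusted p was 0.060, and it was 0.051 to 0.21 without kidney 1, kidney 2, liver 2, liver 3, lung 3, skin 1, skin 2, tail 1 or tail 3, with a difference of 2.09 without liver 2. Within the 3 slides the liver difference was 1.22, 2.48 and 5.81. With the 13 arrays Tbx1 was at least 10.1-fold higher in gonad (0.01) and at least 6.93-fold higher in liver (0.028). Gonad and liver did not differ beyond their spread (0.37 ± 0.83, 1.0), and no neighbours in the order did on the 18 arrays. Heart was at least 5.56-fold lower than tail, its neighbour, on the 13 arrays (0.028). The endothelial markers moved alongside: the 8 genes summed to 9.68 to 25.1 times the 75th percentile on the gonad arrays and 12.5 to 28.8 on the liver arrays, against 3.26 to 5.90 on all others, and their part in the Tbx1 result was not tested.

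Tbx15 (probe A_52_P232802) codes for a factor of the dermis and skeleton, known in mice from the droopy ear mutant with its altered coat pattern. Its levels were 1.81 and 1.88 in skin and 1.67, 1.06 and 1.53 in tail, against -0.34 and -1.16 in kidney, -1.37 and -1.70 in lung, -2.39, -1.43 and -1.14 in liver, -0.86, -2.84 and -2.63 in heart and -4.33, -4.19 and -1.87 in gonad. All 5 skin and tail arrays lay above the 75th percentile of their array, and every array of the internal organs lay below it. Tbx15 was 9.15-fold higher in skin than in the other organs (3.19 ± 0.60, adjusted p = 0.016) and 6.50-fold higher in tail (2.70 ± 0.51, 0.0044). It fell by 3.00 ± 0.51 in gonad (0.0042), where it was well above background on every array. Skin and tail did not differ beyond their spread (0.42 ± 0.73, 1.0), while tail and kidney, the next organs in the order, differed by 2.17 (kidney less tail -2.17, 0.029). Over the 13 arrays the skin, tail and gonad differences were 3.56, 3.27 and -3.77 (0.00018, 9.3e-05 and 0.00011), and Tbx15 also fell by 1.93 in heart (0.0016). Within the 3 slides the gonad difference was -3.62, -4.04 and, with gonad 3, -1.16. The gonad call was lost without gonad 1 (0.062) or gonad 2 (0.058) and the skin call without skin 1 (0.27) or skin 2 (0.38). The 6 keratinocyte markers summed to 10.45 and 12.8 times the 75th percentile on the skin arrays, against 4.12 to 8.13 elsewhere, and their part in the skin results was not tested.

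Tbx18 and Tbx20, the 2 factors highest in heart, both lie on mouse chromosome 9, with 1288 annotated genes between them. They are shown with the 250 bases before their start because they moved together across the 13 arrays. The sequences are RefSeq's on GRCm38.p6, minus strand, 5′ to 3′, Tbx18 at chr9:87731261-87731510 and Tbx20 at chr9:24774304-24774553. Capitals mark a match to AAGTG, the core of sites bound by the cardiac factor NKX2-5.
Tbx18: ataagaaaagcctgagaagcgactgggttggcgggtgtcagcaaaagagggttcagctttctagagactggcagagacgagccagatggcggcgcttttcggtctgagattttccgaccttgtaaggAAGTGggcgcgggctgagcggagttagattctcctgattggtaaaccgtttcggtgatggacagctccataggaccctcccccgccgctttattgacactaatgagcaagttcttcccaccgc
Tbx20: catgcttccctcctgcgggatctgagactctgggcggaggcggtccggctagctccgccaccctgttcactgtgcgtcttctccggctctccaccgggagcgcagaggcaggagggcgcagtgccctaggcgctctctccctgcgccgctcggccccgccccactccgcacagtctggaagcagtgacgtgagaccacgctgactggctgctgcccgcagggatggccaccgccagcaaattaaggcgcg
Tbx18 held 1 AAGTG, 123 to 119 bases before the start, and Tbx20 held none, where 40.7% of 32817 promoter windows of this length held one on either strand. Neither window held the T-box core GGTGTG (16.3% of windows), the longer half-site AGGTGTGA that contains it (1.12%) or the GATA site AGATAA (9.99%), each searched on both strands. A promoter window was at hand for 4 of the 8 factors.

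Tbx20 (probe A_55_P1976310), a repressor and activator needed for chamber growth and valve formation, had levels of 1.53, 2.75 and 2.72 in heart, against 0.73 and 0.69 in kidney, -1.27 and -1.59 in skin, -2.26, -0.82 and -2.20 in tail, -3.41, -2.48 and -1.50 in liver, -3.36 and -4.02 in lung and -5.88, -4.82 and -0.42 in gonad. All 3 heart arrays lay above every other array, with the high-background array heart 1 lowest of the 3. Gonad 1 and lung 3 were not well above background. Tbx20 was 20.97-fold higher in heart (4.39 ± 0.82, adjusted p = 0.0058) and 54.6-fold higher on the 13 arrays (5.77 ± 0.43, 6.4e-05). Within the 3 slides the heart difference was 5.33, 4.08 and 3.82. With the 13 arrays Tbx20 also fell by 3.93 in gonad (0.00052) and by 1.94 in lung (0.048). Heart was higher there than skin, the next organ by this probe, by 4.16 (0.0014). By the other probes, described next, the lung difference was -1.90 (A_55_P2162503, adjusted p = 0.14) and -0.71 (A_52_P429876, 0.61), with no call. Both gave a lower call in gonad, and liver followed heart by both.

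The other 2 Tbx20 probes, designed to other transcript accessions, also peaked in heart, and the next organ was liver by one and kidney by the other. Probe A_52_P429876 had levels of 2.58, 5.07 and 5.15 in heart, -1.47, 0.16 and 1.26 in liver, -2.55 and -2.55 in lung, -2.35 and -2.87 in kidney, -4.27, -3.77 and -3.15 in gonad, -4.41 and -5.46 in skin and -5.64, -4.91 and -5.03 in tail, where it was not well above background, as on skin 2. It was at least 166-fold higher in heart on the 18 arrays (6.5e-06) and at least 338-fold on the 13 (3.7e-05). It was also at least 5.19-fold higher in liver (0.046), at least 9.20-fold lower in tail (0.0012) and lower in skin (-3.29, 0.024), where the main probe gave -0.39 in tail and 0.002 in skin with no call. Probe A_55_P2162503 had levels of 0.91, 2.86 and 2.54 in heart and -1.59 and -2.21 in kidney, and -1.52 to -7.37 on the arrays of the other organs, and was higher in heart by 6.15 ± 0.81 (0.00049). It was not well above background on gonad 1, gonad 2, lung 3, skin 2 and tail 3, and on the 13 arrays it was at least 146-fold higher in heart (7.5e-05). The kidney call of the main probe (2.50 ± 0.97, 0.030) was not shared: its difference in kidney was 1.48 (0.16) by A_55_P2162503 and -0.58 (0.42) by A_52_P429876. Within the slides that held a kidney array it was 2.93 and 1.33 by the main probe. That call was also lost with slide as a block (0.052) and without kidney 1 (0.15) or kidney 2 (0.12).

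**Figure D3:**
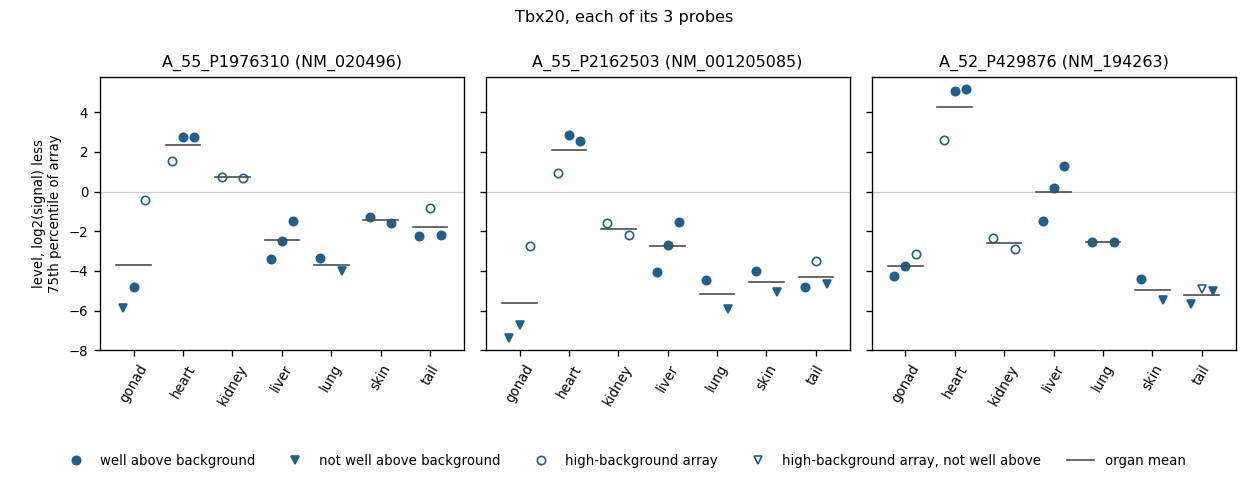
Level of Tbx20 by each of its 3 probes, named with the transcript accession each was designed to (vertical axis, log2 of the processed signal less that of the array's 75th percentile), on the 18 arrays by organ (horizontal axis). Filled symbols are arrays of accepted background, open symbols high-background arrays, triangles probes not well above background and bars organ means. All 3 probes peak in heart, while kidney is second by the left and middle probes and liver by the right one.

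Tbx18 (probe A_51_P438711), a repressor of the epicardium, sinus node and ureter mesenchyme, had levels of -0.27, 1.69 and 1.88 in heart, 0.43 and 0.72 in skin, -0.07, 0.04 and 0.30 in tail, -0.0041 and 0.0105 in lung, -0.50, -0.03 and -0.09 in liver, -0.47, -0.29 and -0.60 in gonad and -1.41 and -1.26 in kidney. Heart 2 and heart 3 lay above every other array, and heart 1, the high-background array, lay among the other organs. With all 18 arrays the heart difference was 1.32 ± 0.35 (0.054), and on the 13 arrays Tbx18 was 3.39-fold higher in heart (1.76 ± 0.16, 0.00018), which was higher there than each of the other 5 organs, skin included (1.21, 0.0044). Tbx18 fell by 1.52 ± 0.42 in kidney (0.0075), a call lost without kidney 1 (0.091) and turned round with each array's floor as a covariate (0.19, 0.83). Across arrays, Pearson's r between Tbx18 and Tbx20 was 0.926 over the 13 arrays and 0.335 over the 18. Heart 2 and heart 3 were the highest arrays for both genes.

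The heart muscle list and the mesothelial and epicardial list did not stand higher on the heart arrays. The 8 cardiomyocyte markers summed to 3.91 to 8.05 times the 75th percentile in heart, against 1.08 to 28.9 on the arrays of the other organs, Actc1 was well above background on none of the 3 heart arrays, and Ryr2 and Pln only on heart 1. The 8 mesothelial and epicardial markers summed to 1.03 to 3.04 in heart, against 4.19 to 95.9 elsewhere, and Gpm6a was not well above background on any heart array. Tcf21 and Aldh1a2, linked to the epicardium below but outside this list, went the other way, higher in heart by 4.61 and 2.57. The smooth muscle and mural markers summed to 101.3 to 457.8 in heart, against 470.7 to 1078 in the organs other than heart and kidney (93.5 to 202.6). In such bulk RNA, fewer cells of a type and less RNA per cell cannot be told apart.

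Skin and tail, the outer tissues of the series, were set against the 5 internal organs, and 3 of the 8 factors were called. Tbx15 was 11.6-fold higher in skin and tail (3.54 ± 0.43, adjusted p = 0.00023) and Tbx3 2.54-fold higher (1.34 ± 0.23, 0.0029), where 2.85% of all genes were higher. Tbx2 fell by 1.77 ± 0.23 (0.00036), where 1.83% of genes were lower. The groups overlapped for Tbx3 and Tbx2 but not for Tbx15. The Tbx2 call was lost when arrays were scaled to the median of their detected probes (-0.97, 0.071). By the 13 arrays the same 3 were called, and Tbx4 was at least 6.39-fold higher (8.5e-05), against 25.1% of all genes higher and 3.84% lower. With normexp and quantile scaling of those arrays 4 factors were called, against 3.41% higher and 3.59% lower. The Tbx4 difference there lay between tail and skin as well: skin was lower than tail by 3.79 (skin less tail -3.79, 0.0012).

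Over the 21 pairs of organs, 58 of 168 tests of the 8 factors were called, against 17.7% of all gene-by-pair tests. Tbx3 separated the most pairs (12 of 21), followed by Tbx2 and Tbx15 (10 each), Tbx1 (8), Tbx20 (7), Tbx4 and Tbx18 (4 each) and Tbx5 (3). At least 1 factor separated 20 of the 21 pairs. No such count was made for other sets of 8 genes, so it shows nothing particular to the factors. Without kidney 1 the number of called tests was 32.

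Tbx2 and Tbx4 are direct neighbours on chromosome 11 in the RefSeq annotation, and Tbx3 and Tbx5 lie close together on chromosome 5 with 2 annotated genes between them. Pearson's r over the 13 arrays was -0.008 for Tbx2 with Tbx4 and 0.276 for Tbx3 with Tbx5, and 0.117 and 0.179 over the 18. Of the 28 pairs of factors, the most alike after Tbx18 and Tbx20 were Tbx4 and Tbx15 (0.683 over the 13 arrays), and the most opposed were Tbx1 and Tbx18 (-0.813). Over the 18 arrays Tbx4 and Tbx15 were the most alike (0.657) and Tbx3 and Tbx20 the most opposed (-0.728), with -0.459 for Tbx1 and Tbx18. These values describe arrays that share organs and slides.

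For each factor the 3 other genes with the most similar levels over the 18 arrays were named, arrays that share slides and the same 5 high backgrounds. They were Npy1r, Sox18 and Reep1 for Tbx1 (r 0.908, 0.899 and 0.897), Frmd5, Etl4 and Lypd2 for Tbx2 (0.855, 0.829 and 0.793), and Cck, Hs6st1 and Hoxa7 for Tbx3 (0.905, 0.887 and 0.876). For Tbx4 they were Rasgrp1, Olfr978 and Sned1 (0.924, 0.911 and 0.904), for Tbx5 Adamts15, Il1r2 and Gfra1 (0.866, 0.849 and 0.809), and for Tbx15 Cacna1g, Hhip and Irx1 (0.938, 0.928 and 0.916). Those of Tbx18 were Ada, Abcb10 and Car13 (0.955, 0.946 and 0.945), and those of Tbx20 were Cmpk2, Gbp9 and Pgam2 (0.950, 0.918 and 0.918). Over the 13 arrays Sox18 (0.944), Cck (0.962), Hoxa7 (0.961), Rasgrp1 (0.923) and Ada for Tbx18 (0.951) were again among the 3, and Ada was the first for Tbx20 too (0.961).

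T-box factors work with other factors at shared enhancers, and 19 of 20 such partners were tested, 12 of which passed the F test, against 35.4% of all genes. Outside kidney, 7 of them were called in an organ contrast. No matching share of all genes was taken, so this count shows nothing particular to the partners. In heart 3 were higher and 3 lower, against 1.47% and 2.57% of all genes. Gata4, a zinc-finger partner of Tbx5 and Tbx20, had mean levels of 2.77 in gonad, 2.00 in heart, 1.86 in liver, -0.55 in lung and -3.83 in kidney, against -6.76 in skin and -6.85 in tail, where it was not well above background on any array. It was at least 35.8-fold lower in skin and tail than in the internal organs (adjusted p = 4.8e-07). Tcf21, a factor of epicardium-derived fibroblasts, had a mean of 3.78 in heart, against 1.18 or less in the other organs, and was higher in heart by 4.61 ± 0.49 (0.0001).

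Nkx2-5, the cardiac homeobox partner of Tbx5 and Tbx20, was low throughout and at least 4.32-fold higher in heart (0.0063), with a mean of -1.90 there against -2.72 in kidney and -3.08 in liver, the next organs. Wt1, an epicardial and mesothelial factor, fell by 2.55 ± 0.54 in heart (0.013), a call not made on the 13 arrays. Its mean was -2.17 in heart, against 3.8 in gonad, 3.77 in liver, 3.69 in lung and 0.90 in kidney. Skin (-4.10) and tail (-5.84) lay below heart, and Wt1 was called lower in both (-4.79, 0.0022, and -6.82, 7.2e-06). Wt1 is also 1 of the 8 mesothelial markers above. Tle1, a corepressor, fell by 1.48 in heart (0.039). Gata6, a relative of Gata4, was higher in liver (2.15, 0.0057) and lung (2.06, 0.039) and fell by 3.31 in tail (5.3e-05). In kidney 15 of the 19 tested partners were called, where 37% of all genes were higher and 40.1% lower, so this count shows nothing particular to them. On the 18 arrays 10 of them were called in no other contrast: Mef2c, Sall1, Sall4, Isl1, Hand1 and Shox2 higher and Srf, Tead1, Smarcd3 and Tle3 lower.

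**Figure D4:**
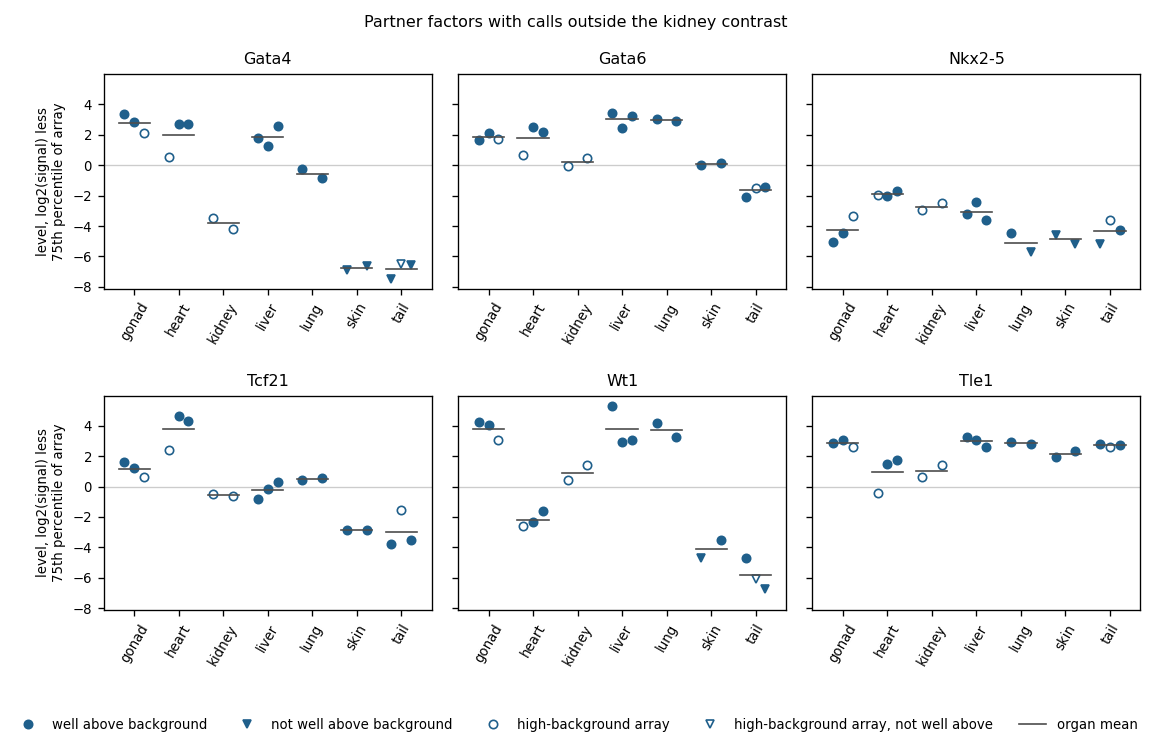
Levels of 6 partner factors with calls outside the kidney contrast, on each of the 18 arrays (vertical axis, log2 of the processed signal less that of the array's 75th percentile) by organ (horizontal axis). Filled symbols are arrays of accepted background, open symbols high-background arrays, triangles probes not well above background and bars organ means. Gata4 and Wt1 are lowest in skin and tail, and Tcf21 is highest in heart.

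Of 30 genes known to be regulated by T-box factors in development, all were tested, and 15 passed the F test, against 35.4% of all genes. Outside kidney, 10 were called in an organ contrast, a count with no matching share of all genes, which shows nothing particular to the list. In heart 4 were higher and 3 lower, against 1.47% and 2.57% of all genes, and the median difference of the list was -0.364 against -0.099 for all genes. Higher in heart were Mycn, a proliferation gene that Tbx2 represses in the embryonic heart (at least 5.91-fold, adjusted p = 0.0051), Aldh1a2, the retinoic acid synthase of the epicardium (2.57 ± 0.43, 0.0027), and the receptor signalling inhibitors Spry1 (1.72, 0.021) and Spry2 (1.01, 0.038). Lower in heart were the secreted ligand Wnt5a (-1.62, 0.045), the cell cycle inhibitor locus Cdkn2a, which Tbx2 and Tbx3 repress (-1.76, 0.0060), and Ndrg1, which human TBX2 represses in cancer cells (-1.89, 0.0017). Cdkn2a was higher in gonad (1.70, 0.011) and in tail (2.16, 0.00094).

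In tail, Gja1, the gap junction gene that Tbx2 and Tbx3 hold back in the heart, was higher (1.72, 0.025) and so was Ndrg1 (1.29, 0.015), while Aldh1a2 (-4.55, 2.5e-05), Mycn (at least 11.5-fold, 3.5e-05) and Spry1 (-1.47, 0.035) were lower. Bmp4 was higher in gonad (2.54, 0.010) and liver (2.15, 0.042, not called on the 13 arrays) and lower in skin (-3.12, 0.015), Bmp2 was higher in gonad (1.51, 0.042), and Aldh1a2 was higher in lung (2.85, 0.023). Fgf10, the best known target of Tbx4 and Tbx5, was not called on the 18 arrays. With the 13 arrays it was at least 4.18-fold lower in heart (0.0041), fell by 2.08 in gonad (0.045) and was at least 4.88-fold higher in skin (0.014). Of all genes 6.01% were lower in heart in that fit, 19% lower in gonad and 21.3% higher in skin. In kidney 20 of the 30 were called, where most genes were.

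The other 9 T-box genes of the list (T, Eomes, Tbr1, Tbx6, Tbx10, Tbx19, Tbx21, Tbx22 and Mga) gave calls in the kidney contrast alone on the 18 arrays. T, Eomes, Tbx10, Tbx19 and Tbx21 were higher there and Mga lower, where 37% of all genes were higher and 40.1% lower. The F test was passed by 1 of the 9, against 35.4% of all genes. Tbx19 was well above background on 2 arrays and Tbr1 on 3, against 18 arrays for Tbx6, Tbx22 and Mga. In the 13-array fit, where 21.3% of all genes were higher in skin, Eomes was at least 2.98-fold (adjusted p = 0.00086) and Tbx21 at least 4.35-fold higher in skin (0.0038). There Tbx21 (at least 2.81-fold, 0.013) and Tbr1 (1.16, 0.012, near background) were also higher in tail, Tbx21 was at least 2.26-fold lower in gonad (0.0041) and Eomes at least 2.09-fold lower in heart (0.0030).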

How the data were processed

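Deposited one-colour scanner files of 18 arrays and a value table of 19 samples were used. Per the file headers and the submitters' processing notes, Agilent Feature Extraction 11.0.1.1 made background-corrected intensities (gProcessedSignal), raw and local background intensities and spot flags; genome placement was not used. The deposited value table held raw median intensities: it equalled them at every spot of all 18 arrays. Outlier spots were left out, spots of a probe averaged, and log2 signals less each array's 75th percentile were taken. Per gene the probe of highest mean log2 level was taken, and kept if well above background on at least 2 arrays. By this rule the tested Tbx20 probe was not the brightest of its probes in heart. Probes were tested with limma 3.58.1 in R 4.3.3 (lmFit, eBayes, 7 organ means, 11 residual degrees of freedom). Benjamini-Hochberg adjustment ran over all 19717 genes within each contrast. Python 3.11.15 read the files and drew the figures. The fit was tested on simulated data. The number of arrays per organ limits the precision. The factors and gene lists were chosen with earlier results of these data known. Named were the 8 factors, listed genes that passed a contrast, and the 3 genes most like each factor. Alternatives covered normalization, probe choice, filters, variance model, slide, replicate number, background and left-out arrays. Gene names came from RefSeq, through the transcript that the array design gives each probe. One partner gene, included in the counts, is not reported by name here.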

Additional observations from a re-analysis of the deposited data

Results flagged for a closer look

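Lung replicate 2 entered none of the tests above, and its raw signals in the deposited value table were looked at because they lie outside them. The column had 52 missing cells, 34 of them in 1 run at spots 58674 to 58707. Before that run its log2 values followed the mean of lung 1 and lung 3 row by row (Pearson's r 0.993 across 58673 spots). After it they did not (0.008 over the last 4269 spots), but they did once compared with the next row (0.991), so each value seems to stand 1 row too early. Tbx3 and Tbx4 lie in that stretch. Tbx3 is listed at 44, and the value 1 row up is 2935, beside 2261 in lung 1 and 2428 in lung 3. Tbx4 is listed at 2454, and the value 1 row up is 1241, beside 915 and 839.

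So read, 5 of the 8 factors in lung replicate 2 were above its highest negative control spot before the run (245.5): Tbx2 (1059.5), Tbx3 (2935), Tbx4 (1241), Tbx5 (1347) and Tbx18 (482). Tbx2 and Tbx5 also exceeded every array of accepted background from another organ, where the highest were 657 and 569.5. Tbx1 (137.5), Tbx15 (215) and Tbx20 (126.5) were below that control spot. These are raw signals of 1 array with no scaling, and no difference was tested on them. The rows were moved after the data were seen.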

How the results depend on the processing

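Counts of called factors depended on the scaling more than on the model. The count in the organ contrasts, 17 as reported, was 34 with normexp and quantile normalization, 27 with quantile normalization, 27 with normexp and quantile normalization on the 13 arrays, and 6 with arrays scaled to the median of their detected probes. That last scaling gave 26 of the 58 pairwise calls, and it moved the median of all genes in the skin and tail contrast to 1.22, against 0.414; of the calls over all genes 97.9% were then higher, against 60.8% (tail 95.5% against 64.3%, skin 87.7% against 53.3%, heart 13.4% against 36.4%). Quantile scaling put the higher share at 83.3% in liver, against 66.6%. For these settings no share of all genes over the organ contrasts or pairs was taken, so the counts show nothing particular to the factors. Genes called higher in heart were 290 as reported, 365 with normexp and quantile normalization, 442 with quantile normalization and 105 with the median scaling. In kidney 7295 genes were higher and 7907 lower as reported, against 2465 and 5324 with normexp and quantile normalization. Among probes that stood well above background everywhere, 4 factors were tested and all 4 passed the F test, as did 76.4% of all genes. Leaving out each array in turn gave 5 to 8 factors by the F test (10.2% of all genes without kidney 1 to 83% without heart 1), 12 to 22 calls in the organ contrasts, 32 to 82 between pairs and 3 to 3 between skin and tail and the internal organs; an organ left with 1 array was assumed to vary like the others, and this was not run within the 13 arrays. With replicate number as a replicate block the counts were 8 (19.5% of all genes by the F test), 16, 55 and 3. The Tbx2 and Tbx3 lung calls then had adjusted p 0.057 and 0.051. No share of all genes was taken for the contrast counts of this fit or of the fits with an array left out. Arrays of the same number did not deviate together on average (mean r -0.032, against 0.025 for different numbers). Deviations from means of so few arrays are tied within each organ, so this check cannot show whether equal numbers share a mouse or a batch. Of 272 values of the called contrasts under the alternatives other than leaving out an array, 240 kept their call, 29 lost it and 3 turned round: Tbx18 in kidney with the array floor as a covariate (0.19), Tbx20 in kidney by probe A_52_P429876 (-0.58) and Tbx3 in lung in the deposited value table as listed (-0.33), which holds lung 2's misplaced rows; with the rows moved by 1, chosen after seeing the data as were the 13 arrays with normexp and the other Tbx20 probes, its call was kept. Of 110 F tests, 109 stayed under the threshold, the exception being Tbx18 with slide as a block (adjusted p 0.050). Dim factors (Tbx4, Tbx5, Tbx1 and Tbx20 in some organs) have only a bound where signal is near background.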
